A study of Mus musculus with 9 samples.

Results

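The vascular endothelial growth factor (VEGF) family of ligands and receptors was followed in the left ventricle of 14-day-old mice of the outbred ICR/CD1 strain. Its 10 genes were taken by symbol from the 16698 genes of the deposited table, and all 10 were found there: the ligand genes Vegfa, Vegfb, Vegfc, Vegfd and Pgf, and the receptor genes Flt1, Kdr, Flt4, Nrp1 and Nrp2. Transverse aortic constriction (TAC) is an operation that ties the arch of the aorta to a smaller bore and so raises the pressure that the ventricle has to work against. The labels give 3 libraries after TAC at postnatal day 1 (day-1 TAC), which they call the regenerative stage, 3 after TAC at postnatal day 7 (day-7 TAC), the non-regenerative stage, and 3 after sham surgery, for which they give no day. All hearts were taken at day 14, so the age at surgery and the time under load differ together. No group carried an engineered allele or a drug, per the labels, and the labels do not say whether a library is 1 animal or a pool.

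VEGF ligands are secreted proteins that bind receptor tyrosine kinases, mostly on endothelial cells, and so steer the growth and upkeep of vessels. VEGF-A drives blood vessel growth through the kinase receptor encoded by Kdr. Flt1 binds VEGF-A tightly, signals weakly and also exists as a secreted form, and it is the receptor of VEGF-B and of placental growth factor (Pgf). VEGF-C and VEGF-D act mainly through Flt4, the receptor best known from lymphatic endothelium. The neuropilins Nrp1 and Nrp2 are co-receptors that also bind semaphorins.

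With day-1 TAC, Pgf was lower and Vegfc and its receptor gene Flt4 were higher than in sham. With day-7 TAC only Kdr passed the test against sham, as higher. Vegfa, the best known ligand gene of the family, did not pass in any comparison. These calls are from limma, a linear model fitted to the deposited log2 values of all 9 libraries, with Benjamini-Hochberg adjustment over 13712 genes and a threshold of 0.05.

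Of the 10 genes, 3 passed the threshold in the day-1 TAC comparison with sham, where 34.8% of all genes tested passed: 2 as higher (14.3% of all genes) and 1 as lower (20.5%). With day-7 TAC against sham 1 was called as higher, against 28.9% of all genes in either direction and 13.8% as higher. Between the TAC groups 2 were called, against 16.7% of all genes, 1 as higher with day-1 TAC (6.42% of all) and 1 as lower (10.3%), and among the 3 groups the F test called 4, against 44.4%. The shares of the family lay near or below those of all genes, so these counts say nothing particular about the family, and the results below are about single members. Groups did not overlap in 5 of the 10 genes for day-1 TAC against sham, where 48.0% of all genes did not, in 3 for day-7 TAC against sham (46.7%) and in 3 between the TAC groups (38.9%). The median log2 fold change of the 10 genes was 0.16, -0.02 and 0.13 in these comparisons, and that of all genes tested was -0.04, -0.01 and -0.03. Both TAC comparisons share the sham libraries.

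The genes kept held 18535200 to 26521000 recovered reads per library. Library 3 of day-1 TAC had 10532 reads of Xist, against 7 to 40 elsewhere, and 18 of the Y-linked gene Ddx3y, against 3312 to 4706. By these genes it reads as female and the other libraries as male. Day-1 TAC thus mixes the sexes, and the other groups do not. Calls that rest on day-1 TAC were also computed without library 3, which leaves 2 libraries in that group. Cardiomyocyte markers were the highest of the marker lists, with a mean of 12.60 to 13.03 on the log2 scale, and skeletal muscle markers were low (-0.92 to -0.15). The 23 endothelial markers, none of them a member of the family, had library means of 6.46 to 6.56 in sham, 6.38 to 6.43 with day-7 TAC and 6.27 to 6.39 with day-1 TAC. In bulk tissue, fewer cells of a type and less RNA per cell cannot be told apart.

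The promoter windows of the 4 genes that passed a test are shown because Vegfc and Flt4 were higher with day-1 TAC while Pgf was lower, and Kdr was higher with day-7 TAC. RefSeq gives each window on GRCm38.p6 as the 300 bases from 250 before to 50 after a transcript start, and all 10 genes matched, with 12 windows. Capitals mark the core of the hypoxia response element, searched as ACGTG and GCGTG on both strands, so that CACGT and CACGC are its reverse strand.
Pgf (chr12:85177264-85177563, minus strand): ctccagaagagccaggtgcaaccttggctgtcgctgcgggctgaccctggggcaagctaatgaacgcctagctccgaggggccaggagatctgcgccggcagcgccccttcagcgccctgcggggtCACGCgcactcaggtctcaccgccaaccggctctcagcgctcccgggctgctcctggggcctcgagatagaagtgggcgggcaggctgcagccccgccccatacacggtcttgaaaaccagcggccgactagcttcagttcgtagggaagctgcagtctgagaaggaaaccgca
Vegfc (chr8:54077282-54077581, plus strand): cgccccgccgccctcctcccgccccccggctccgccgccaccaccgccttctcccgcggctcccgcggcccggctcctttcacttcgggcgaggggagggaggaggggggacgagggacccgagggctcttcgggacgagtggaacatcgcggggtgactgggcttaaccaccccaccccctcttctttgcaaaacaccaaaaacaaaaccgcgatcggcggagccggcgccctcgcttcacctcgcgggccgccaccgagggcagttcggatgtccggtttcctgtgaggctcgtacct
Flt4 (chr11:49609429-49609728, plus strand): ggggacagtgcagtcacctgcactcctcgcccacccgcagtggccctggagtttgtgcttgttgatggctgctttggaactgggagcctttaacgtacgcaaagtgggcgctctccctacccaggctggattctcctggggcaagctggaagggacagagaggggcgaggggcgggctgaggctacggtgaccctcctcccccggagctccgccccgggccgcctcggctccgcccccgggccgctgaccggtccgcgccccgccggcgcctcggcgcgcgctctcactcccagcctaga
Kdr (chr5:75978406-75978705, minus strand): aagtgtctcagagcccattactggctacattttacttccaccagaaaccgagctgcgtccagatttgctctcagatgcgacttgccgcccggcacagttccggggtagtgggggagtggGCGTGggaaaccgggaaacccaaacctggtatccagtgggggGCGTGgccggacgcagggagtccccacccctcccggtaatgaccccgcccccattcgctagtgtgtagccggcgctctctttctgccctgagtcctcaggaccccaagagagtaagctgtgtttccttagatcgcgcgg

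The core stood 2 times in the Kdr window, 1 time in the Pgf window and 0 times in those of Vegfc and Flt4. Pgf has a further RefSeq window, at a start inside the gene, without the core. Over the family 7 of 12 windows (58.3%) held it, and 43.8% of the 32851 promoter windows in the RefSeq table did. The windows were rich in G and C, at 60.7% for Kdr, 66.0% for Pgf and 70.3% for both Vegfc and Flt4. The letters describe these windows and nothing was measured on them.

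On GRCm38, in GENCODE release M21, Vegfa lies on chromosome 17 from 46016993 to 46032369, Vegfb on 19 from 6982473 to 6987651, Vegfc on 8 from 54077606 to 54187096, Vegfd on X from 164373378 to 164402650 and Pgf on 12 from 85166635 to 85177790. Flt1 lies on chromosome 5 from 147561604 to 147726011, Kdr on 5 from 75932827 to 75978458, Flt4 on 11 from 49609263 to 49652739, Nrp1 on 8 from 128358604 to 128503363 and Nrp2 on 1 from 62703285 to 62818695. All are protein-coding. The values are per gene, so the splice forms of Vegfa and the membrane and secreted forms of Flt1 were not separated. Nrp2 overlaps the antisense gene Gm29083 and, on its own strand, the unclassified gene Gm37121, and Nrp1 overlaps the microRNA gene Mir1903 on its own strand. Reads in these overlaps cannot be told apart, as the strand setting of the counting is not given.

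To compare levels between genes, linear values were divided by the kilobases of exon of each gene, a scale on which the ligands stood far apart. In sham Vegfb was highest, at 153 ± 6.68 (SD, n = 3) per kb, followed by Vegfa at 123 ± 15.4. Vegfc stood at 5.10 ± 0.179, Pgf at 2.58 ± 0.722 and Vegfd at 2.04 ± 0.296 per kb. Vegfa and Vegfb together thus made up most of the ligand level: Vegfb held 51.1 to 55.8% of it in the sham libraries and Vegfa 40.6 to 45.8%. Pgf held 0.691 to 1.16% of the ligand level in sham, 0.570 to 0.767% with day-7 TAC and 0.357 to 0.375% with day-1 TAC. Vegfc held a mean of 1.79%, 1.62% and 2.27% in the same groups.

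Among the receptors in sham, Kdr (34.7 ± 5.29 per kb) and Nrp1 (32.7 ± 2.09) led, and their ranges overlapped. Flt1 followed at 14.8 ± 0.660, Nrp2 at 12.9 ± 1.11 and Flt4 at 2.55 ± 0.111. In the order of all 10 genes in sham, the neighbours Kdr and Nrp1 overlapped, as did Pgf and Flt4, and the other neighbours did not. With day-7 TAC the overlapping neighbours were Vegfd and Pgf, at the bottom of the order, and with day-1 TAC they were Nrp2 and Flt1. With day-1 TAC Pgf was last, at 1.11 ± 0.0729 per kb. Dividing by the longest transcript instead put Nrp1 above Kdr in every group, Flt1 above Nrp2 with day-1 TAC and Pgf above Vegfd with day-7 TAC, so these orders rest on the length used.

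**Figure D1:**
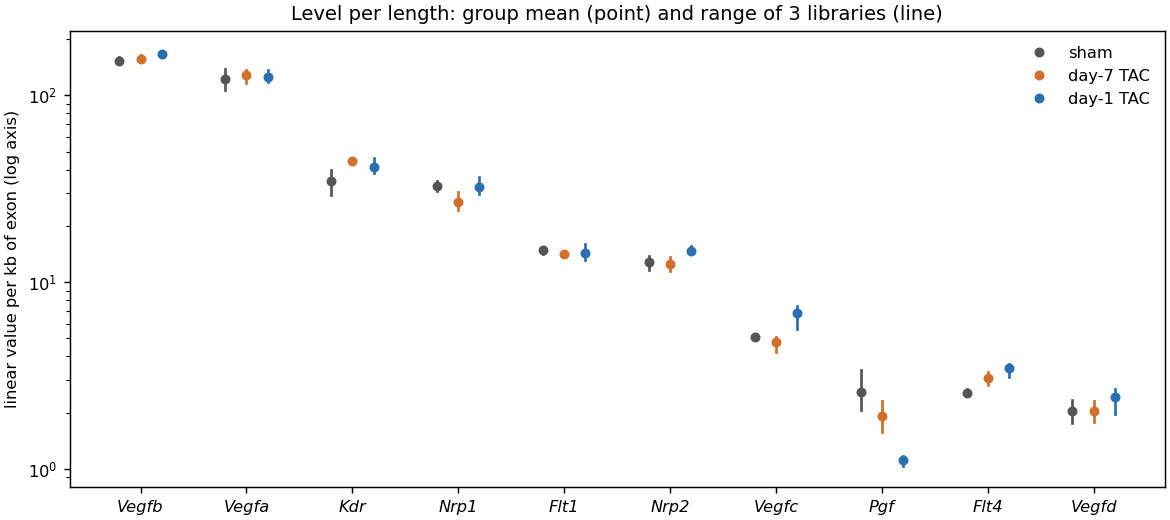
Linear value per kilobase of exon (log axis) for the 10 genes, ordered by their level in sham, in sham (grey), day-7 TAC (orange) and day-1 TAC (blue). Points are means and lines the range of 3 libraries. Vegfb and Vegfa stand highest, and Pgf drops from 2.58 in sham to 1.11 with day-1 TAC.

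Pgf encodes a ligand that binds Flt1 but not Kdr. Its deposited log2 values were 3.31, 2.59 and 2.71 in sham. They were 2.74, 2.45 and 2.19 in the day-7 TAC libraries, and 1.59, 1.70 and 1.77 in those of day-1 TAC. These values rest on 126 to 198 reads in sham, 96 to 160 with day-7 TAC and 63 to 66 with day-1 TAC. All day-1 TAC libraries lay below every other library, while sham and day-7 TAC overlapped. Pgf was 2.27-fold lower with day-1 TAC than in sham (log2 fold change -1.18, SE 0.21, adjusted p = 0.00214 by limma). The difference of day-7 TAC from sham was -0.41 (SE 0.21, adjusted p = 0.163).

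Between the TAC groups Pgf was 1.71-fold lower with day-1 TAC (-0.77, SE 0.21, adjusted p = 0.0312 by limma). That call was lost without day-7 TAC library 1 or 2 or without any of the 3 day-1 TAC libraries, at -0.63 to -0.82 and adjusted p of 0.0573 to 0.106, while the call against sham held under all 19 alternatives (adjusted p at most 0.00794). Without day-1 TAC library 3 the difference from sham was -1.23 (adjusted p = 0.00621).

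Vegfc encodes the main ligand of Flt4. Its log2 values were 3.65, 3.59 and 3.69 in sham, 3.65, 3.37 and 3.60 in the day-7 TAC libraries, and 4.18, 4.20 and 3.79 in those of day-1 TAC, on 198 to 380 reads. Every day-1 TAC library lay above all others, and library 3 was the closest to them. Vegfc was 1.33-fold higher with day-1 TAC than in sham (0.41, SE 0.13, adjusted p = 0.0325 by limma) and 1.43-fold higher than with day-7 TAC (0.52, SE 0.13, adjusted p = 0.0240). Day-7 TAC stood at -0.11 from sham (SE 0.13, adjusted p = 0.572).

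Against sham the call was lost without any of the 3 sham libraries and without day-1 TAC library 1 or 2 (0.34 to 0.44, adjusted p of 0.0537 to 0.103). Against day-7 TAC it was lost without day-7 TAC library 2 or 3 or day-1 TAC library 1 or 2 (0.43 to 0.55, adjusted p of 0.0545 to 0.0827). Without day-1 TAC library 3, the one with Xist reads, the differences were 0.55 (adjusted p = 0.00915) and 0.65 (adjusted p = 0.0113).

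Macrophages and fibroblasts are among the cells that can make VEGF-C, and some of their markers differed between the groups. Macrophage markers rose in 2 of 7 with day-1 TAC (14.3% of all genes tested did). Those higher there than in the day-7 TAC libraries were 4 of 7 (6.42% of all). Without day-1 TAC library 3 the counts were 1 and 3, where 12.5% and 4.70% of all genes were called as higher. With day-7 TAC 2 of 7 macrophage markers fell (15.1% of all genes did), Mrc1 by 0.55 and Cd68 by 0.66. Their summed linear level was 87.7 to 124 in sham, 72.8 to 84.0 with day-7 TAC and 109 to 152 with day-1 TAC. Fibroblast markers rose in 3 and fell in 1 of 7 with day-1 TAC, where 14.3% of all genes rose and 20.5% fell. With library 3 left out they rose in 4 and fell in 1, where 12.5% and 17.0% of all genes did. Their sums were 3107 to 4289 in sham, 3804 to 4260 with day-7 TAC and 4331 to 5496 with day-1 TAC. Neutrophil markers were called as higher in 5 of 6 with day-1 TAC (4 without its library 3) and in 6 of 6 with day-7 TAC. Their mean log2 value per sham library was only -2.58 to -1.65. A tested gene had to exceed 0 in 3 or more libraries, which TAC libraries alone can supply. These calls may therefore be built in and are not counted as a result. The marker sums of the sham libraries were 1.67 to 3.59, and those of the day-7 TAC libraries 28.9 to 67.4. The day-1 TAC sums were 6.10, 8.51 and 29.4, the last being library 3. The part of these cells in the Vegfc result was not tested.

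Flt4 was higher in the same comparison as its ligand gene. Its log2 values were 4.33, 4.46 and 4.38 in sham, 4.69, 4.76 and 4.54 in the day-7 TAC libraries, and 4.91, 4.89 and 4.68 in those of day-1 TAC. All TAC libraries lay above all sham libraries, and the TAC groups overlapped each other. Flt4 was 1.36-fold higher with day-1 TAC than in sham (0.44, SE 0.09, adjusted p = 0.00566 by limma), a call that held under all 19 alternatives (adjusted p at most 0.0205) and stood at 0.51 without day-1 TAC library 3. With day-7 TAC the difference from sham was 0.27 (SE 0.09, adjusted p = 0.0514), just outside the threshold, which 9 of 19 alternatives passed, and between the TAC groups it was 0.17 (95% interval -0.04 to 0.37, adjusted p = 0.248).

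Markers of lymphatic endothelium, where Flt4 is best known, were not called as higher with it. Of the 7 in the list 5 were tested, and the summed linear level of the 5 was 200.4 to 221 in sham, 108 to 129 with day-7 TAC and 128 to 161 with day-1 TAC. Prox1 weighs most in this sum, at a mean log2 value of 7.35 in sham against 4.12 for Lyve1, the next. With day-1 TAC 2 of 5 fell (20.5% of all genes tested did) and none rose: Prox1, the master transcription factor of lymphatic identity, by 0.63 and Reln by 1.08. With day-7 TAC, where 15.1% of all genes fell, Prox1 fell by 0.87, Reln by 1.19 and Mmrn1 by 1.19, and Lyve1 (-0.64) and Pdpn (0.09) did not pass. The median of the list was -0.49 and -0.87, against -0.04 and -0.01 for all genes tested, and the first was -0.19 without day-1 TAC library 3, where Prox1 and Reln kept their calls. Prox1 is also made by cardiomyocytes and Lyve1 by some macrophages, and the part of each cell type in these values was not tested.

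VEGF-C is secreted as a precursor, which the protease encoded by Adamts3 cleaves with the help of Ccbe1. Adamts3 stood at 4.98, 4.95 and 5.02 on the log2 scale in sham, at 4.52, 4.89 and 4.49 with day-7 TAC, and at 3.77, 4.22 and 4.26 with day-1 TAC. It was lower with day-1 TAC than in sham (-0.90, SE 0.14, adjusted p = 0.00135 by limma) and than with day-7 TAC (-0.55, SE 0.14, adjusted p = 0.0284), and kept both calls without day-1 TAC library 3 (-0.99 and -0.64). Ccbe1 stood at -0.43 with day-1 TAC and -0.58 with day-7 TAC against sham and did not pass (adjusted p = 0.194 and 0.0964).

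**Figure D2:**
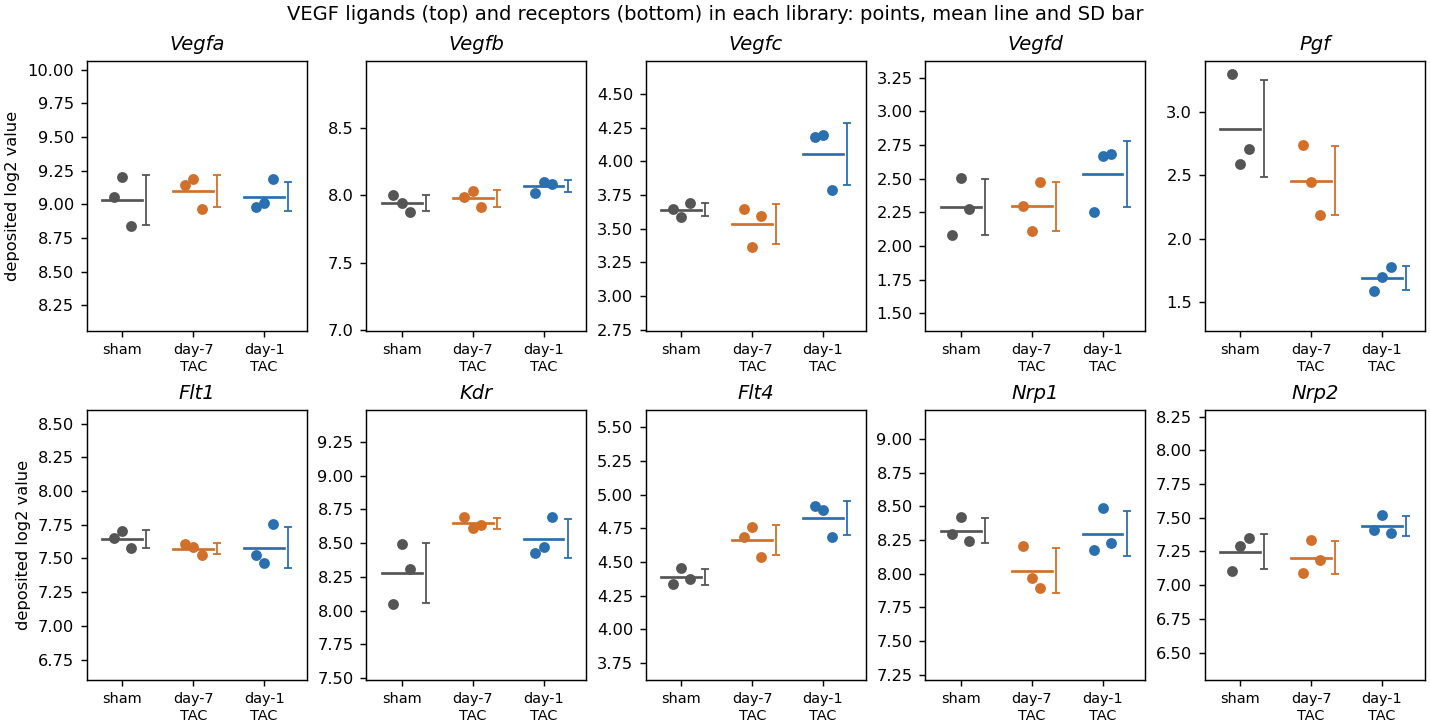
Deposited log2 value of each gene in each library, ligands above and receptors below, with sham in grey, day-7 TAC in orange and day-1 TAC in blue. Points are libraries, lines are means and bars are SDs of 3 libraries. Pgf is lowest and Vegfc highest in the 3 day-1 TAC libraries, and all TAC libraries of Flt4 lie above sham.

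Kdr encodes the main signalling receptor for VEGF-A. Its log2 values were 8.05, 8.49 and 8.31 in sham, 8.69, 8.61 and 8.63 in the day-7 TAC libraries, and 8.43, 8.47 and 8.70 in those of day-1 TAC. The day-7 TAC libraries were close together and above all sham libraries, while day-1 TAC overlapped both. Kdr was 1.29-fold higher with day-7 TAC than in sham (0.37, SE 0.11, adjusted p = 0.0315 by limma). That call was lost without sham library 1 or 3 or any of the 3 day-7 TAC libraries (0.25 to 0.38, adjusted p of 0.0577 to 0.0915). The difference of day-1 TAC from sham was 0.25 (SE 0.11, adjusted p = 0.101), and the TAC groups differed by -0.11 (95% interval -0.36 to 0.13, adjusted p = 0.514).

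Flt1 encodes the receptor that holds VEGF-A without strong signalling. It ranged from 7.47 to 7.75 over all 9 libraries and all pairs of groups overlapped. Its difference from sham was -0.06 with day-1 TAC (95% interval -0.24 to 0.11) and -0.07 with day-7 TAC (-0.25 to 0.11). Neither interval reaches the 0.37 seen for Kdr with day-7 TAC.

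The co-receptor gene Nrp1 had log2 values of 8.30, 8.42 and 8.24 in sham, 8.21, 7.97 and 7.89 in the day-7 TAC libraries, and 8.18, 8.49 and 8.23 in those of day-1 TAC. Day-7 TAC lay below sham without overlap, at -0.30 (SE 0.10), and did not pass (adjusted p = 0.0572 by limma). It passed without day-7 TAC library 1 (-0.39, adjusted p = 0.0283), without day-1 TAC library 1 or 2 (adjusted p = 0.0480 and 0.0402) and in a fit of only these 2 groups (adjusted p = 0.0444). Nrp2, the neuropilin that pairs with Flt4, was 7.11, 7.29 and 7.35 in sham, 7.09, 7.34 and 7.19 in the day-7 TAC libraries, and 7.41, 7.52 and 7.39 in those of day-1 TAC. Day-1 TAC lay above both other groups without overlap, by 0.19 over sham (adjusted p = 0.111) and by 0.24 over day-7 TAC (adjusted p = 0.0870), and neither difference passed.

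Vegfa had log2 values of 9.05, 9.20 and 8.84 in sham, 9.15, 9.19 and 8.96 in the day-7 TAC libraries, and 8.98, 9.01 and 9.19 in those of day-1 TAC, on 8785 to 15072 reads. The groups overlapped throughout. The 95% interval of its log2 difference from sham was -0.21 to 0.26 with day-1 TAC and -0.16 to 0.30 with day-7 TAC. Vegfb, a ligand of Flt1 made in quantity by heart muscle, was 8.01, 7.94 and 7.88 in sham, 7.99, 8.04 and 7.91 in the day-7 TAC libraries, and 8.02, 8.10 and 8.09 in those of day-1 TAC. Day-1 TAC lay above sham by a narrow gap (0.12, SE 0.06, adjusted p = 0.162 by limma).

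Vegfd, which binds Flt4 as Vegfc does, was the ligand gene with the fewest reads beside Pgf, at 83 to 145. It stood at 2.09 to 2.50 in sham, 2.11 to 2.47 with day-7 TAC and 2.25 to 2.68 with day-1 TAC, and all groups overlapped. Its difference from sham with day-1 TAC was 0.25 with a 95% interval of -0.14 to 0.64, which includes the size seen for Vegfc. Vegfd is X-linked, and day-1 TAC library 3, with its Xist reads, stood at 2.68 beside 2.67 in library 2.

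**Figure D3:**
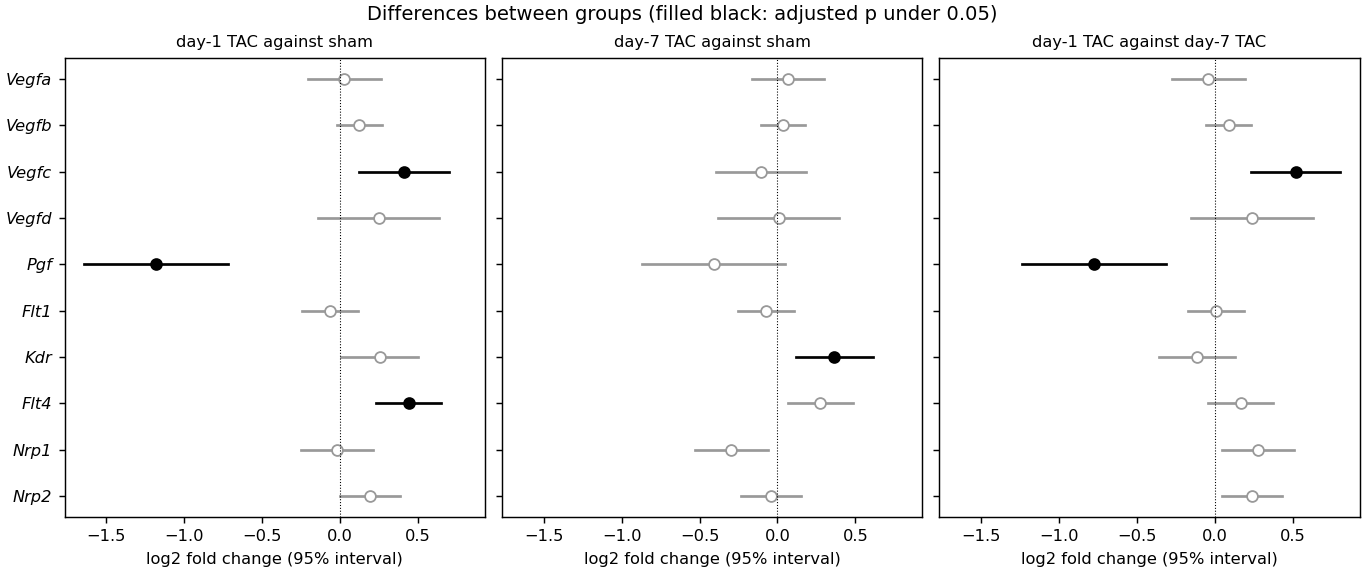
Log2 fold change of each gene in 3 comparisons with limma's 95% interval. Filled black points have an adjusted p under 0.05: Vegfc, Pgf and Flt4 with day-1 TAC against sham, Kdr with day-7 TAC against sham, and Vegfc and Pgf between the TAC groups.

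Balances between members were read as the log2 difference of 2 genes within a library, in which the scaling of the library cancels. With 3 libraries a group the exact two-sided permutation test cannot give a p below 0.1, and 15 tests were made. Flt1 minus Kdr was -0.39, -0.78 and -0.73 in sham, -1.08, -1.03 and -1.11 with day-7 TAC, and -0.95 ± 0.05 (SD, n = 3) with day-1 TAC. The 3 groups did not overlap in any pair, and the balance was lower than in sham by 0.44 with day-7 TAC and by 0.32 with day-1 TAC (exact p = 0.1 each, adjusted 0.167). Sham library 1, with the lowest Kdr of all libraries, lay highest.

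Nrp1 minus Kdr was 0.25, -0.07 and -0.07 in sham and -0.48, -0.64 and -0.74 with day-7 TAC, without overlap (exact p = 0.1, adjusted 0.167). With day-1 TAC it was -0.25, 0.01 and -0.47 and overlapped sham. Pgf minus Vegfa was -5.75, -6.61 and -6.12 in sham and -7.40, -7.31 and -7.41 with day-1 TAC, again without overlap (exact p = 0.1, adjusted 0.167). Vegfc minus Flt4 was -0.75 ± 0.10 in sham and -0.77 ± 0.11 with day-1 TAC (SD, n = 3 each, exact p = 0.5), the comparison in which both genes were higher, and -1.13 ± 0.24 with day-7 TAC, below sham without overlap (exact p = 0.1). Vegfa minus Vegfb overlapped in all comparisons.

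**Figure D4:**
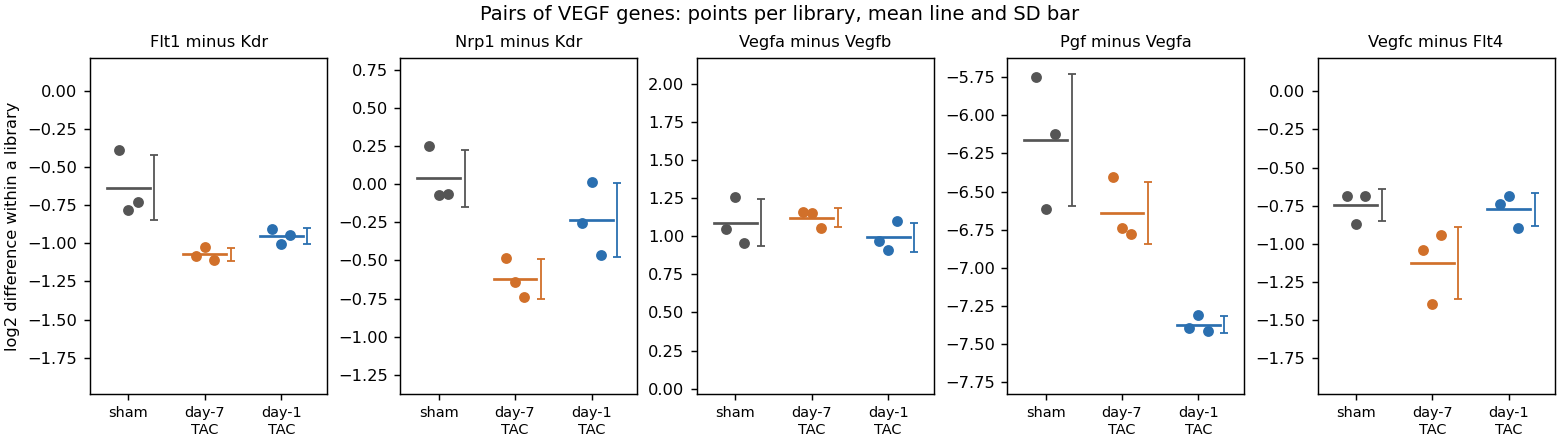
Log2 difference of 2 genes within each library for 5 pairs, with sham in grey, day-7 TAC in orange and day-1 TAC in blue; points are libraries, lines are means and bars are SDs of 3 libraries. Flt1 minus Kdr is lower in all TAC libraries than in sham, and Pgf minus Vegfa is lowest with day-1 TAC.

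Most of the receptor genes are endothelial, and some endothelial markers were lower with TAC. With day-1 TAC 9 of 23 fell (20.5% of all genes tested did), and with day-7 TAC 5 of 23 (15.1% of all). The day-7 count is near the share of all genes. Without the day-1 TAC library with Xist reads, 8 of 23 fell, where 17.0% of all genes did. None was called as higher, and most markers did not pass in either comparison. The list medians were -0.16 and -0.08, against -0.04 and -0.01 for all genes. The mean of the list was 0.19 lower with day-1 TAC than in sham and 0.12 lower with day-7 TAC. Aqp1 fell most (-1.28 and -0.80) and weighs most in the change of that mean. Centring each library on that mean gives the genes relative to endothelial markers, and moves the median of all genes with day-1 TAC from -0.04 to 0.16. It raises every gene alike, so a call gained in this way is relative to these markers. The calls gained were those of Vegfb, Kdr and Nrp2 with day-1 TAC and of Flt4 with day-7 TAC. Vegfb, Kdr and Nrp2 also passed after quantile normalization and after scaling to the library total, and Flt4 passed in 9 of 19 alternatives. These calls thus depend on the processing. On the centred scale limma called 6 of 10 genes with day-1 TAC against sham (5 higher, 1 lower), against 35.8% of all genes. With day-7 TAC it called 2 of 10, both higher, against 28.6%. Between the TAC groups it called 2, against 12.4%. Calls as higher are common on this scale. They were 74.0% of all genes called with day-1 TAC, 69.9% with day-7 TAC and 58.9% between the TAC groups.

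Relative to endothelial markers, Kdr was higher by 0.44 with day-1 TAC (SE 0.11, adjusted p = 0.0121) and by 0.48 with day-7 TAC (SE 0.11, adjusted p = 0.0101). Flt4 was higher by 0.63 (adjusted p = 0.00237) and 0.39 (adjusted p = 0.0274). Nrp2 was higher by 0.38 with day-1 TAC (adjusted p = 0.0170), and without day-1 TAC library 3 the day-1 values of Kdr, Flt4 and Nrp2 were 0.40, 0.74 and 0.44 (adjusted p at most 0.0361). Flt1 and Nrp1 did not pass on this scale either, at 0.13 and 0.17 with day-1 TAC and 0.05 and -0.18 with day-7 TAC. Among the subtype lists, arterial markers rose in 2 and fell in 1 of 9 with day-1 TAC (1 and 1 without its library 3). Endocardial markers fell in 3 of 5 in both TAC groups (2 with day-1 TAC without its library 3). Of all genes tested 14.3% rose and 20.5% fell with day-1 TAC, and 15.1% fell with day-7 TAC. The 4 venous markers tested did not pass in any comparison.

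Genes that VEGF induces in endothelial cells were read from a list of 18, chosen with earlier results of these data known. The counts of this list are therefore a description and no independent support. With day-1 TAC 7 rose and none fell, where 14.3% of all genes tested were called as higher, and with day-7 TAC 5 rose and none fell, against 13.8%. The median of the list was 0.33 and 0.25, against -0.04 and -0.01 for all genes. Esm1, which encodes a secreted proteoglycan of growing capillaries, was 1.29, 1.16 and 1.78 on the log2 scale in sham, 2.93, 2.28 and 2.92 in the day-7 TAC libraries, and 4.33, 3.64 and 3.59 in those of day-1 TAC. The 3 groups did not overlap, on 49 to 66 reads per sham library and 232 to 421 per day-1 TAC library. Esm1 was higher by 2.44 with day-1 TAC (SE 0.26, adjusted p = 0.000192 by limma) and by 1.30 with day-7 TAC (SE 0.26, adjusted p = 0.00458) than in sham, and by 1.14 in the direct comparison of day-1 with day-7 TAC (adjusted p = 0.0148). Without day-1 TAC library 3 the list again had 7 genes called as higher and none as lower, and Esm1 stood at 2.57 against sham.

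Other members of that list are also made by cardiomyocytes and other cells. Rcan1, a calcineurin inhibitor, rose by 1.84 with day-1 TAC and 1.63 with day-7 TAC, and Nr4a1, an immediate-early nuclear receptor, by 1.23 and 0.89. Egr3, a transcription factor, rose by 3.08 with day-1 TAC, but had only 4 to 26 reads in sham, where 1 of 3 libraries lay above the cut-off for testing. Egr1 rose by 1.94 with day-1 TAC and stood at 0.19 with day-7 TAC (adjusted p = 0.696), and the TAC groups differed by 1.75 (adjusted p = 0.00766). Nr4a3, a relative of Nr4a1, rose by 1.58 and 4.18, and the TAC groups differed by -2.60. Nos3, the endothelial nitric oxide synthase, rose with day-7 TAC by 0.28.

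Of the 10 genes of endothelial tip cells, the leading cells of a sprout, 4 rose with day-1 TAC and 3 with day-7 TAC, and none fell, against the same 14.3% and 13.8% of all genes called as higher. The lists share Esm1, Apln, Angpt2, Dll4, Cxcr4 and Plaur, so the counts are not separate evidence. The tip-cell list, too, was chosen with earlier results of these data known. Without day-1 TAC library 3 the count was again 4. Beside Esm1, the peptide gene Apln rose by 1.01, the netrin receptor gene Unc5b by 0.96 and the basement membrane gene Nid2 by 0.40 with day-1 TAC. With day-7 TAC Pdgfb, which recruits pericytes, rose by 0.45 and Nid2 by 0.35. The Notch ligand gene Dll4, which VEGF induces in tip cells, stood at 0.09 with day-1 TAC (adjusted p = 0.475) and -0.19 with day-7 TAC (adjusted p = 0.173). Angpt2 stood at -0.40 and -0.14 and did not pass.

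**Figure D5:**
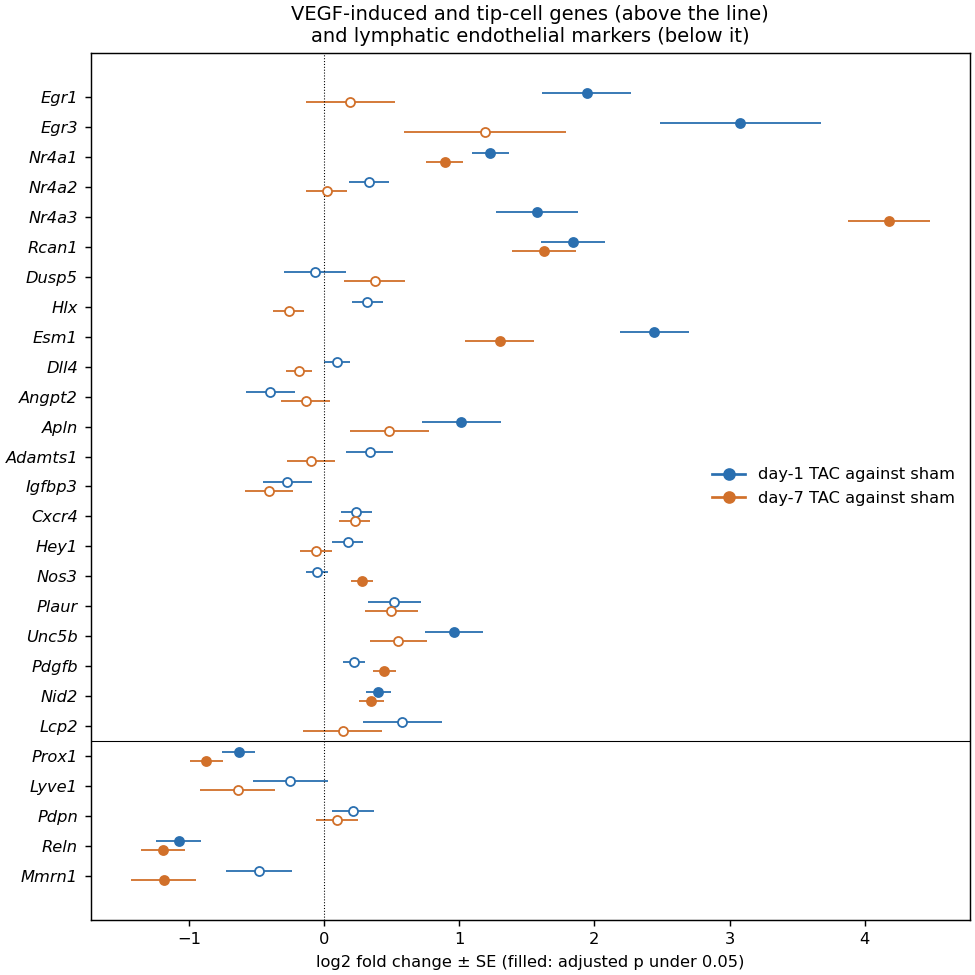
Log2 fold change with SE of VEGF-induced and tip-cell genes (above the line) and lymphatic endothelial markers (below it), for day-1 TAC (blue) and day-7 TAC (orange) against sham; filled points have an adjusted p under 0.05. Esm1 stands at 2.44 and 1.30, and Prox1 and Reln lie below 0 in both comparisons.

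Of 17 genes known to set the level of Vegfa, 2 rose and 6 fell with day-1 TAC, where 14.3% of all genes rose and 20.5% fell. With day-7 TAC 4 rose and 3 fell, where 13.8% and 15.1% did. Hif1a, the oxygen-regulated transcription factor subunit, rose by 0.38 and 0.43 with day-1 and day-7 TAC, the first of which was lost without day-1 TAC library 3 (0.40, adjusted p = 0.0551). The other genes of this list named here kept their day-1 calls without it. Its relative Epas1 fell by 0.59 with day-1 TAC and stood at -0.18 with day-7 TAC (adjusted p = 0.219). Hif3a, a relative that can restrain the others, fell by 3.23 and 1.60. Egln3, a prolyl hydroxylase that hypoxia-inducible factors induce, rose by 1.46 with day-1 TAC and stood at 0.07 with day-7 TAC. Ppargc1a, a coactivator that raises Vegfa in muscle, fell by 1.02 with day-1 TAC and rose by 0.78 with day-7 TAC.

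Of 37 genes that carry the signal below the receptors, 7 rose and 7 fell with day-1 TAC, and 6 rose and 4 fell with day-7 TAC. In either direction 34.8% and 28.9% of all genes were called, so these counts are near those of all genes, and the members below are described singly. The medians of the list were -0.02 and 0.01. Plcg1, the phospholipase that docks on the Kdr protein, fell by 0.42 with day-1 TAC and by 0.28 with day-7 TAC. Shb, an adaptor of the same receptor, rose by 0.67 with day-7 TAC and stood at 0.03 with day-1 TAC (adjusted p = 0.804), and the kinase gene Akt1 rose by 0.55 with day-7 TAC and stood at -0.13 with day-1 TAC. The TAC groups differed by -0.64 for Shb and -0.68 for Akt1 (adjusted p = 0.00128 and 0.00233). Prkca and Prkcd, which encode protein kinases C, rose by 0.94 and 0.75 with day-1 TAC, and Pik3r1, the regulatory subunit of PI3 kinase, fell by 0.86 with day-1 TAC and by 0.79 with day-7 TAC. The genes counted as risen include the adaptor gene Sh2d2a in both TAC groups, with 1 to 11 reads in sham, 39 to 61 with day-7 TAC and 14 to 25 with day-1 TAC. It lay above the cut-off for testing only in TAC libraries, so its call is built in and counts for nothing. The other genes of this list named here kept their day-1 calls without library 3.

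Of 27 tested co-receptor, processing and modulator genes, 4 rose and 5 fell with day-1 TAC and 4 rose and 2 fell with day-7 TAC, again near the 34.8% and 28.9% of all genes called in either direction. Without day-1 TAC library 3, 3 rose and 5 fell, and the genes named below kept their calls. The list includes class 3 semaphorins, the other ligands of the neuropilins. Sema3a fell by 1.22 with day-1 TAC and by 0.82 with day-7 TAC, and Sema3g fell by 0.47 with day-1 TAC. Sema3b rose by 0.43 with day-1 TAC and 0.79 with day-7 TAC, and Sema3f, a ligand of Nrp2, by 0.72 and 0.63. Sema3d rose by 1.03 with day-1 TAC. Sema3c did not pass in either comparison with sham. Ptprb, a phosphatase that restrains Kdr, fell by 0.40 with day-1 TAC and stood at 0.02 with day-7 TAC. Cdh5, the junctional cadherin that binds Kdr, fell by 0.28 and 0.33. This list shares Cdh5, Ptprb, Clec14a and Mmrn2 with the endothelial markers, so the counts of the lists are not separate evidence.

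For the 4 members called by the F test, the genes with the most similar profile over the 9 libraries were found by Pearson's r among the 11108 tested genes whose mean log2 value was 2 or more. For Pgf they included Ptp4a3 (r = 0.975) and Zfp30 (0.973), and for Flt4 they were Ankrd40 (0.972), Parp9 (0.972) and Rpn1 (0.966). For Vegfc they were Cst3 (0.959), Lrrc55 (0.955) and Abat (0.944), and for Kdr Adcy4 (0.930), Sorbs2 (0.929) and 4632404H12Rik (0.929). These r describe 9 libraries in 3 groups, which all genes that differ between the groups share.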

How the data were processed

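The authors deposited log2 values of 16710 rows for 9 libraries, sequenced single-end for 50 cycles, and per the file headers they are TMM values. The library medians were nearly equal, at 3.75 to 3.76. The submitters' processing notes list Trim Galore, STAR, edgeR and mm10, and for versions, annotation and strand setting the sources used here give nothing. In each library all linear values were whole multiples of the lowest within 0.001, so reads were recovered with the lowest value taken as 1 read. Rows of 3 symbols that stood on 4 rows each were left out, which kept 16698 genes. Of the sham columns 2 carry the same name, and their numbers 2 and 3 follow column order.

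A gene was tested where its log2 value exceeded 0 in 3 or more libraries (13712 genes, with all 10 members). The fit over all 9 libraries used limma 3.58.1 (R 4.3.3) with an intensity trend, two-sided, adjusted over all genes. A fold change is the difference of mean log2 values, given with its standard error. Nothing in the labels ties a library to an animal, and the p-values therefore reflect the spread between libraries, which may be technical. The same gene lists were used in all comparisons, with up to 4 members of a list named by smallest p in a comparison. Egr3, Angpt2, Ccbe1, Plcg1, Sema3c, Sema3f, Sema3g, Hif1a and the marker genes were chosen after their values were seen. The members and lists were chosen with earlier results of these data known. Gene coordinates are from GENCODE M21 on GRCm38, the assembly of mm10, and promoter windows from RefSeq. The steps were tested on simulated data. Other filters, scalings, variance models, a pseudocount of 1 and leaving out each library were tried. The values of lists, their genes and endothelial-centred genes without day-1 TAC library 3 were added after seeing the data. One gene with a profile like that of Pgf is not reported here.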

Additional observations from a re-analysis of the deposited data

Results flagged for a closer look

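The effects of day-1 and day-7 TAC, each against the same sham libraries, differed for 2 genes of the family in the direct limma comparison of the TAC groups. Pgf was lower with day-1 TAC by -0.77 (log2, SE 0.21, adjusted p = 0.0312), with all 3 day-1 TAC libraries below all 3 day-7 TAC libraries. Vegfc was higher by 0.52 (SE 0.13, adjusted p = 0.0240), again without overlap. Of 20 alternatives 6 lost the Pgf call and 5 that of Vegfc, most of them by leaving out 1 library. Groups of 3 were too small to look for a library far from the others in the values of Pgf and Vegfc. Day-1 TAC library 3 stood apart by its Xist and Ddx3y reads. Without it the Pgf call between the TAC groups was lost and that of Vegfc was kept.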

How the results depend on the processing

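Over 580 alternative values of the 30 fold changes (10 genes in 3 comparisons), 534 kept their side of the threshold, 22 lost a call, 24 gained one, and none that was called in either setting changed sign. With day-1 TAC against sham, 6 genes in place of 3 were called after quantile normalization, after scaling to the library total and after centring on endothelial markers, the added ones being Vegfb, Kdr and Nrp2. With day-7 TAC against sham, 2 in place of 1 were called with a mean above 1 as filter, with robust limma, in a fit of only the 2 groups, after quantile normalization, after scaling to the library total, after a recomputed trimmed mean and after centring on endothelial markers, and 0 without an intensity trend (3 at an unadjusted p under 0.05). Leaving out a library gave 2 to 3 genes with day-1 TAC, 0 to 3 with day-7 TAC, 0 to 2 between the TAC groups, and 2 to 4 among the 3 groups, with 2 to 4 genes at an unadjusted p under 0.05 where the limma fits between the TAC groups called 0, and 1 to 3 where those of day-7 TAC did. The cause was not tested. Of all genes called with day-1 TAC against sham, 41.1% were higher as deposited, 60.1% with library totals and 74.0% centred on endothelial markers, which moves the median of all genes from -0.04 to 0.16. These shares were 47.7%, 59.7% and 69.9% for day-7 TAC, and 38.5%, 50.2% and 58.9% between the TAC groups, where quantile normalization gave 48.7%. A fit of the TAC libraries with the replicate number as a replicate block called 0 members (3 at an unadjusted p under 0.05; Vegfc adjusted p = 0.0850, Pgf 0.0712) and 1167 genes in all against 2287. The comparisons with sham could not be fitted with the block, as 2 sham columns share a name. Same-numbered libraries correlated at -0.224, -0.110 and -0.0365 in their deviations, and 0 of the 3 correlated best with its own number. Pgf, Vegfc, Vegfd and Flt4 rest on 63 to 633 reads per library, which limits their precision.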
